A study of Mus musculus with 7 samples.

Results

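The 97 genes described here were lower in β-cells of diabetic db/db mice than in those of lean db/+ mice and remained low when Aldh1a3 had been deleted in the diabetic β-cells. They were chosen by measured levels in all 7 libraries of a table of 35013 gene symbols, with levels as CPM (the estimated read count of a gene per 1000000 counts of the library). A member had a mean of at least 10 CPM in db/+, every db/+ value above all 4 diabetic values, and a knockout mean of at most 50% of the db/+ mean. Predicted and pseudogene symbols were to be dropped, and none of the 97 was one. The rule asked for the 100 with the lowest db/db to db/+ ratio, but fewer met it, so the 97 are all of them.

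Polyadenylated RNA of sorted β-cells was sequenced from 2 Aldh1a3 knockout (KO) db/db mice, 2 db/db mice and 3 db/+ mice, with 1 library per mouse. The KO mice carried RIP-Cre Herr, Aldh1a3 fl/fl and tdT fl/+ on Lepr db/db. Both control groups carried RIP-Cre Herr, Aldh1a3 fl/+ and tdT fl/+, on Lepr db/db or on Lepr db/+, so that every group carried the rat insulin promoter Cre, a Cre-dependent tdTomato reporter and at least 1 floxed Aldh1a3 allele. The controls therefore could lose 1 copy of Aldh1a3 in β-cells. For their experiments in general the authors give an age of 16 to 20 weeks and both sexes, with a 16 h fast ahead of islet isolation. The sex of each of these 7 mice is not given in the sources used here. Y-linked genes had 2911 counts in db/+ mouse 3 and 20 to 79 counts in every other library. The only library with high Y-linked counts was therefore lean, and sex may not be balanced between lean and diabetic groups. Because Lepr db is a germline mutation, db/db differs from db/+ in the whole animal, with obesity and hyperglycemia, whereas the Aldh1a3 deletion is limited to cells in which the insulin promoter is active.

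The β-cell reads glucose by metabolising it. GLUT2, encoded by Slc2a2, lets glucose in, glucokinase phosphorylates it, and G6pc2 encodes an islet glucose-6-phosphatase that works against glucokinase. Respiration in mitochondria then raises ATP, which closes potassium channels and opens calcium channels, and calcium drives the release of insulin granules. The aldehyde dehydrogenase ALDH1A3 makes retinoic acid from retinaldehyde and is known as a marker of β-cells that have lost mature features in diabetes.

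Library totals ran from 27496645 to 35852785 counts. Aldh1a3 was at 118 and 238 CPM in db/db, at 4.40 and 9.06 CPM in KO db/db, and at 0.06 to 0.51 CPM in db/+, in the order the labels give. Ins1 and Ins2 together took 21.8 to 24.4% of counts in the 4 diabetic libraries and 32.2 to 36.1% in the lean ones. The summed level of 25 acinar markers was 105600 CPM in KO db/db mouse 1 and 11440 CPM in mouse 2, against 69.9 to 390.1 CPM in the other 5 libraries. None of the 97 members was in the short lists of markers of other cell types used here, which do not cover every such marker. Mitochondrial transcripts took 12.1 to 21.3% of counts in db/+ and 7.22 to 11.3% in the diabetic libraries. With such large shares unequal between groups, CPM of most genes shifted: over the 7000 named genes at 10 CPM or more in db/+, the median log2 ratio was 0.39 for db/db to db/+, 0.14 for KO db/db to db/+ and -0.23 for KO db/db to db/db. Scaling by TMM (trimmed mean of M-values, which sets the bulk of genes equal) brought these medians to -0.07, -0.07 and 0.02. In bulk RNA, fewer β-cells in a sort and less RNA per cell cannot be told apart.

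The limit on KO db/db left out another 481 named genes whose db/+ values were all above the 4 diabetic values. With CPM scaled by TMM, 280 genes met the conditions, among them all 97, of which 64 were within the 100 lowest db/db to db/+ ratios that the rule would then keep. The members just inside that limit were Hikeshi at 49.3%, Ap1s2 at 49.6% and Blcap at 49.97% of db/+, and the genes just outside it were Pgf at 50.04%, Mrpl36 at 50.05% and Ugt2b34 at 50.35%. At the limit on level, Parp11 was inside with a db/+ mean of 10.05 CPM and Brms1l outside with 9.96 CPM. For separation, the lowest db/+ value of H3c14 was 1.005 times its highest diabetic value, while that of Gadd45b was 0.97 times. All 97 passed the filter on low counts of an edgeR quasi-likelihood fit and all were called lower at a Benjamini-Hochberg adjusted p under 0.05 in both diabetic groups, where 18.0% of 13406 genes tested were called lower in db/db and 17.9% of 13228 in KO db/db (19.9% and 20.5% were called higher). The rule used these contrasts, so the calls describe it. With scaling by TMM the median log2 fold change of members was -1.78 in db/db and -1.57 in KO db/db. As plain CPM, the median member was at 40.8% of db/+ in db/db (range 2.00 to 70.4%) and at 39.0% in KO db/db (range 7.33 to 49.97%). Only part of the list was therefore near absence in db/db, and Pgap1, which edits the lipid anchor of membrane proteins, was still at 70.4%. On this plain scale the median of the 7000 genes was 132% of db/+ in db/db. The fitted log2 fold change of Pgap1 in db/db, with TMM scaling, was -0.995.

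The knockout was neither level with db/db nor on 1 side of it. Both KO db/db values lay above both db/db values in 22 members, below them in 27, and overlapped them in 48. Among the 7000 genes, 10.8% lay above and 42.8% below. This split moved with the scaling: with TMM, 36 members lay above and 18 below, as did 33.9% and 26.2% of the 7000 genes. It moved with single libraries too, to 38 above and 29 below without KO db/db mouse 1, 24 and 54 without KO db/db mouse 2, 34 and 32 without db/db mouse 1, and 29 and 52 without db/db mouse 2. The order followed the rank. In the 12 members with the lowest db/db to db/+ ratio, the KO db/db values were above db/db in 12 of 12, with median levels of 9.16% of db/+ in db/db and 28.4% in KO db/db. In ranks 65 to 97, where db/db retained a median of 58.2%, KO db/db was at 40.0% and lay below db/db in 22 members and above in 0. Since the ranking used db/db itself, and every member had KO db/db at or under 50%, this order is partly built in. It was taken in plain CPM and was not counted by rank with TMM. In plain CPM the median log2 ratio of KO db/db to db/db was 1.30 in ranks 1 to 12 and -0.52 in ranks 65 to 97. That of the 7000 genes was -0.23. In the direct contrast, whose libraries all entered the rule, so that the calls are again a description, edgeR called 3 members higher in KO db/db (Trpm5, Tmem215 and Sfrp5) and 0 lower, with 20 higher and 5 lower at an unadjusted p under 0.05. Background calls there were 0.126% of genes higher and 0.193% lower. Without db/db mouse 1 the edgeR count of members called higher was 0, and without any other single library it was 2 to 4. DESeq2 called 15 members higher and 3 lower, against 5.28% and 4.52% of its 14151 genes.

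**Figure D1:**
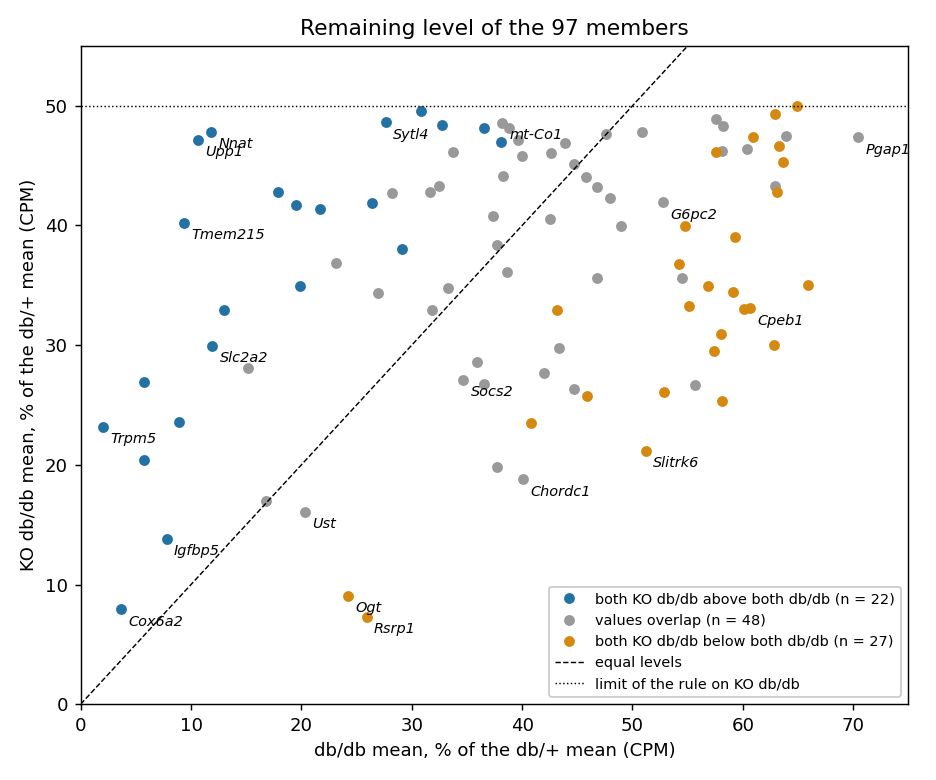
Each point is 1 of the 97 members, with its db/db mean on the horizontal axis and its KO db/db mean on the vertical axis, both as a percentage of the db/+ mean in CPM. The 22 members whose KO db/db values were both above db/db lie at the left, the 27 with both below lie mostly at the right, and no point exceeds the dotted 50% limit that the rule set.

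Members that serve glucose handling and secretion ran from the deepest loss to a moderate one. Trpm5, which encodes a calcium-activated cation channel, was at 120.2, 101 and 110.1 CPM in the 3 db/+ libraries, 2.65 and 1.76 CPM in db/db and 28.2 and 23.01 CPM in KO db/db. The 3 groups did not overlap, and KO db/db was 11.6 times db/db while still at 23.2% of db/+. The fitted log2 change from db/db to KO db/db was 3.83 ± 0.35 (SE). Slc2a2 was at 1047, 929 and 1009 CPM in db/+, 156 and 81.5 CPM in db/db and 331 and 264 CPM in KO db/db. GLUT2 mRNA thus stood at 11.9% of the lean level in db/db and at 29.9% in KO db/db, with a fitted log2 difference between the diabetic groups of 1.62 ± 0.40 (SE).

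Sytl4 encodes granuphilin, which docks insulin granules at the plasma membrane. Its level was 333, 293 and 245 CPM in db/+, 76.4 and 84.1 CPM in db/db and 139 and 144 CPM in KO db/db, again 3 groups with no overlap. Gipr, the receptor for the incretin GIP, had 23.4, 21.6 and 19.5 CPM in db/+, 4.76 and 7.35 CPM in db/db and 6.87 and 11.5 CPM in KO db/db, and here the diabetic groups overlapped. G6pc2 was one of the most abundant members. It measured 2892, 2699 and 2864 CPM in db/+, 1613 and 1360 CPM in db/db and 1560 and 803 CPM in KO db/db, so that KO mouse 1 lay between the db/db mice and KO mouse 2 was the lowest library. Of these 5 genes, grouped after the values were seen, KO db/db was above db/db in 3 and overlapped it in Gipr and G6pc2. Among the 7000 genes, 10.8% lay above and 42.8% below, or 33.9% and 26.2% with TMM.

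**Figure D2:**
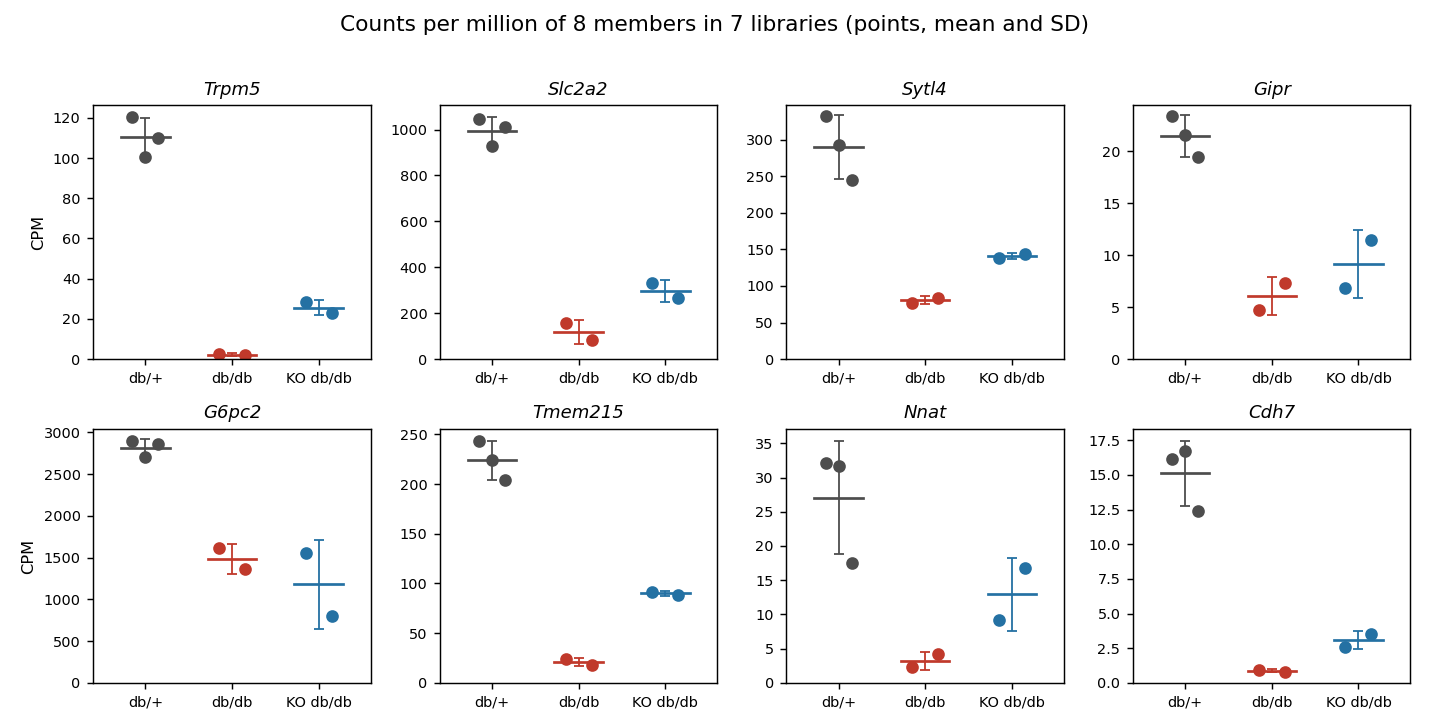
Points are the CPM of 8 members in the 3 db/+, 2 db/db and 2 KO db/db libraries, with the mean as a horizontal bar and the SD as a vertical bar, on linear axes that start at 0. Every db/+ point lies above every diabetic point, and KO db/db points lie above db/db points in all panels but Gipr and G6pc2.

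The rest of the same pathways did not move as one. In a list of 13 genes of glucose entry and sensing, Slc2a2, G6pc2 and the β-cell hormone Ucn3 were called lower in db/db and 5 were called higher. In KO db/db, 4 were called lower and 3 higher. Txnip, an inhibitor of thioredoxin, had a fitted log2 fold change of 2.96 ± 0.25 (SE, adjusted p = 0.00068 by edgeR) and so rose in db/db. Among 28 genes of exocytosis, 4 of 25 tested were lower and 5 higher in db/db, and 4 of 26 were lower and 8 higher in KO db/db, with Sytl4 the member. Of 39 ion channels tested in db/db, 8 were lower and 15 higher, and of 38 in KO db/db, 1 was lower, Trpm5 itself, and 19 were higher. Over all genes tested, 18.0% were called lower and 19.9% higher in db/db, and 17.9% were called lower and 20.5% higher in KO db/db. Of 35 receptors and cyclic nucleotide enzymes tested, 10 were lower and 8 higher in db/db, and of 37 in KO db/db, 12 were lower and 6 higher. No member came from the list of 21 β-cell transcription factors. Mafa in that list was at 27.01% of db/+ in db/db but at 115% in KO db/db, and so was outside the limit on KO db/db.

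Among members, the largest difference in reads came from the mitochondrial genome. Of its 13 protein-coding genes, 6 were members: mt-Co1, mt-Co2 and mt-Co3, the catalytic core of cytochrome c oxidase, mt-Atp6 and mt-Atp8 of the ATP synthase, and mt-Nd3 of complex I. This group was picked out after its values were seen. The most abundant, mt-Co1, was at 57120, 52820 and 32400 CPM in db/+, 17660 and 18600 CPM in db/db and 18050 and 28060 CPM in KO db/db. The third db/+ mouse stood well below the other two, and KO db/db mouse 2 above the remaining diabetic mice. The same order held for mt-Co3, with 23840, 22600 and 12740 CPM in db/+, 6849 and 8265 CPM in db/db and 6312 and 11100 CPM in KO db/db. Over the 6, db/db retained 38.2 to 43.9% of db/+ and KO db/db 40.5 to 48.6%, and the diabetic groups overlapped in all 6.

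The other 7 mitochondrially encoded genes were not members. All 13 were called lower in db/db by edgeR (median log2 fold change -1.63) and 12 of 13 in KO db/db (median -1.11). The exception was mt-Nd5, at 62.1% of db/+ in db/db and 77.4% in KO db/db. Of all genes tested, 18.0% were called lower in db/db and 17.9% in KO db/db. Nuclear copies of mitochondrial sequence can take some reads of these genes, so their counts carry that uncertainty.

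One nuclear gene of the chain was a member, and only a few CPM of it were left in diabetic β-cells. Cox6a2, the muscle isoform of subunit VIa of cytochrome c oxidase, was at 68.2, 40.6 and 77.7 CPM in db/+, 2.93 and 1.65 CPM in db/db and 4.84 and 5.02 CPM in KO db/db. Both diabetic groups lay far below the lowest lean library, and KO db/db, at 7.93% of db/+, lay just above db/db at 3.68%. In a list of nuclear genes of the respiratory chain and ATP synthase, Cox6a2 included, gathered by name after the data were seen, 44 of 93 tested were called lower and 2 higher in db/db (median log2 fold change -0.34), and 50 of 94 lower and 0 higher in KO db/db (median -0.38). Of all genes tested, 18.0% were called lower and 19.9% higher in db/db, and 17.9% and 20.5% in KO db/db. These fits used TMM scaling. In plain CPM the list summed to 5314, 5526 and 5398 in db/+ and to 6100 and 5969 in db/db. It summed to 4437 and 5561 in KO db/db, so the lower level in db/db was not seen in plain CPM sums. Cox6a2 was the only member of that list.

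**Figure D3:**
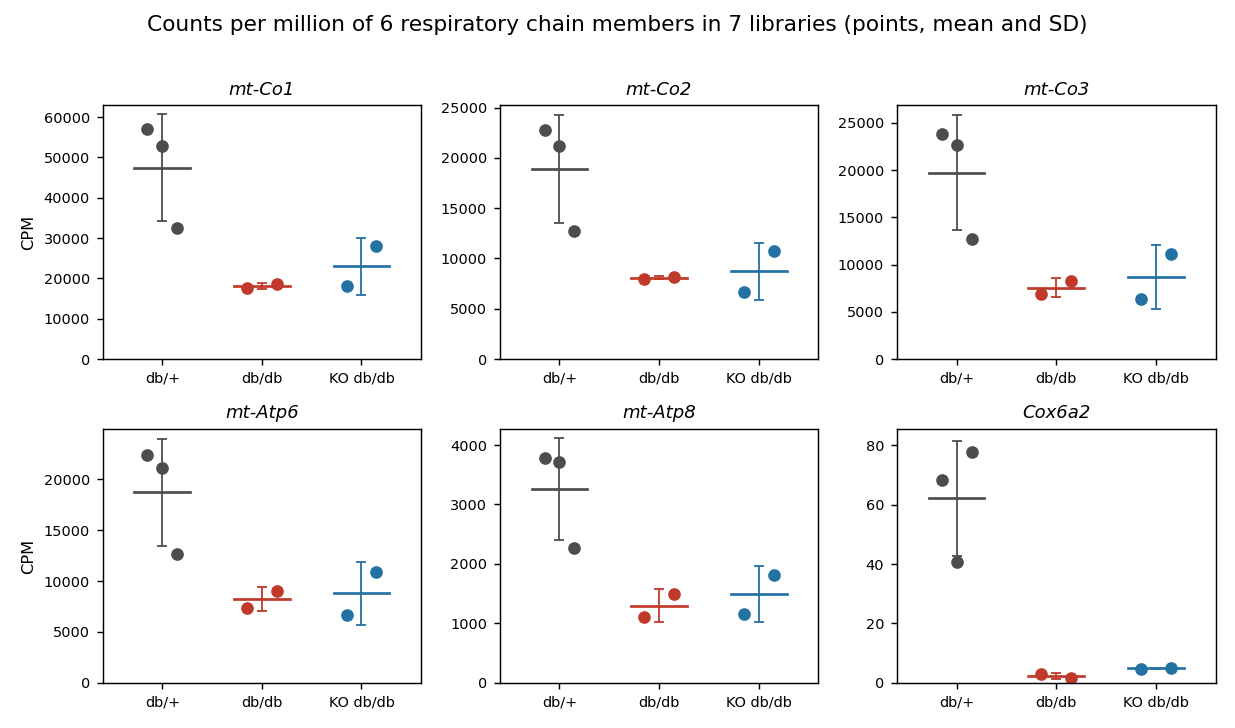
CPM of 5 mitochondrially encoded members and of the nuclear gene Cox6a2 in each library, with group mean and SD, on linear axes from 0. The lowest db/+ point in the 5 mitochondrial panels is mouse 3, close to the higher KO db/db point, whereas the diabetic points of Cox6a2 lie near 0.

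Several members encode surface or secreted proteins. Cdh7, a cadherin, was at 16.2, 16.7 and 12.4 CPM in db/+, 0.952 and 0.794 CPM in db/db and 2.62 and 3.54 CPM in KO db/db. Igfbp5, which binds insulin-like growth factors, was at 10.4, 14.6 and 6.56 CPM in db/+ and 0.847 and 0.794 CPM in db/db, with 1.20 and 1.70 CPM in KO db/db. In db/db, Cdh7 stood at 5.78% and Igfbp5 at 7.80% of db/+, and the KO db/db mean was 3.53 times that of db/db for Cdh7 and 1.77 times for Igfbp5. The secreted Wnt-binding protein Sfrp5 was among the calls between the diabetic groups, with 68.8, 41.01 and 73.96 CPM in db/+, 10.7 and 11.2 CPM in db/db and 22.5 and 29.96 CPM in KO db/db, a fitted log2 difference of 1.52 ± 0.15 (SE).

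Slitrk6, a leucine-rich repeat protein of neurons, went the other way. It was at 112, 106 and 97.9 CPM in db/+, 68.8 and 38.9 CPM in db/db and 20.04 and 24.5 CPM in KO db/db, so that both KO mice were below both db/db mice. Thbd, the thrombin receptor thrombomodulin, stood at 16.8% of db/+ in db/db and 16.98% in KO db/db. Tmem215, a transmembrane protein, was among the few members called between the diabetic groups, at 244, 225 and 204 CPM in db/+, 23.9 and 18.2 CPM in db/db and 91.9 and 88.3 CPM in KO db/db. Its fitted log2 change from db/db to KO db/db was 2.38 ± 0.23 (SE).

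Imprinted and cytoskeletal members were spread along the ranking by db/db to db/+ ratio, with Nnat at rank 9 and Impact at rank 76 of the former, and Tmsb15b2 at rank 3, Mns1 at rank 46 and Tuba1b at rank 75 of the latter. Nnat encodes neuronatin, an imprinted small membrane protein of the secretory pathway, and measured 32.1, 31.7 and 17.5 CPM in db/+, 2.26 and 4.15 CPM in db/db and 9.17 and 16.7 CPM in KO db/db. KO db/db mouse 2 came within 1 CPM of db/+ mouse 3, and KO db/db stood at 47.8% of db/+. Impact, an imprinted inhibitor of the kinase GCN2, was at 58.1% of db/+ in db/db and 46.2% in KO db/db, with overlapping diabetic values. In a list of 23 imprinted genes, 7 of 20 tested were lower and 2 higher in db/db, and 4 of 21 were lower and 4 higher in KO db/db. Of all genes tested, 18.0% were called lower and 19.9% higher in db/db, and 17.9% and 20.5% in KO db/db. Tmsb15b2, of the actin-binding thymosin family, was at 43.98, 39.9 and 27.1 CPM in db/+, 1.48 and 2.76 CPM in db/db and 9.71 and 10.2 CPM in KO db/db. Its exons overlap those of the close copies Tmsb15b1 and Tmsb15l, so its share of the reads is uncertain. Socs2, a suppressor of cytokine signalling, was at 24.5, 34.8 and 11.3 CPM in db/+, 11.1 and 5.26 CPM in db/db and 7.13 and 5.63 CPM in KO db/db, and the lowest lean value was barely above the highest diabetic one.

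A set of 10 members are enzymes of small molecules, a group formed after the values were seen. In db/db they retained 8.92 to 60.9% of db/+ and in KO db/db 23.6 to 48.1%, and KO db/db was above db/db in 4 and below in 2 (10.8% and 42.8% of the 7000 genes). With TMM scaling it was above in 7 and below in 0 (33.9% and 26.2% of genes), and none of the 10 was called between the diabetic groups. Car15, a carbonic anhydrase, was at 37.8, 50.96 and 30.8 CPM in db/+, 3.14 and 3.97 CPM in db/db and 11.1 and 7.73 CPM in KO db/db. Upp1, which splits uridine, was at 9.92, 14.1 and 13.2 CPM in db/+, 1.38 and 1.26 CPM in db/db and 5.89 and 5.80 CPM in KO db/db, and so stood at 47.1% of the lean mean, against 10.6% in db/db. The aldo-keto reductases Akr1c14 and Akr1c19, the reductase Dhrs4, the flavin monooxygenase Fmo1 and the sulfotransferase Sult1c2, which act on steroids or foreign compounds, were at 36.9 to 48.1% of db/+ in KO db/db. Amd1, which makes the aminopropyl donor of polyamines, was at 139.8, 123.2 and 107 CPM in db/+, 84.4 and 55.7 CPM in db/db and 33.8 and 52.4 CPM in KO db/db.

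Another 16 members act on RNA, chromatin and nuclear traffic, a group also formed after the values were seen. KO db/db was below db/db in 9 and above in 1, the histone H2bc21, beside 42.8% and 10.8% of the 7000 genes. With TMM scaling it was below in 6 and above in 1 (26.2% and 33.9% of genes), and edgeR called 0 of the 16 between the diabetic groups. Rsrp1, an arginine and serine rich nuclear protein, was at 59.8, 60.1 and 133 CPM in db/+, 34.6 and 9.06 CPM in db/db and 4.26 and 8.09 CPM in KO db/db, and had the lowest KO db/db share of all members at 7.33% of db/+. The fitted log2 difference between the diabetic groups was -1.60 ± 0.65 (SE), which was not among the calls, and it was -0.31 without db/db mouse 1 and -2.28 without db/db mouse 2. Srsf7, an SR splicing factor, was at 51.3, 26.98 and 20.5 CPM in db/+, 18.3 and 11.9 CPM in db/db and 6.69 and 10.3 CPM in KO db/db. The lean mice differed widely among themselves here, with db/+ mouse 1 the highest. Tra2a, a splicing activator of the same kind, was at 43.2% of db/+ in db/db and 32.9% in KO db/db.

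SR genes were not lower throughout. In a list of 15 SR proteins and relatives made after the data were seen, 8 were called lower and 1 higher in db/db, and 8 lower and 2 higher in KO db/db. The list includes 4 members, which the rule chose as low. Of all genes tested, 18.0% were called lower and 19.9% higher in db/db, and 17.9% and 20.5% in KO db/db. Srsf4 was called higher in both diabetic groups, at 15.1 CPM in db/+, 43.1 CPM in db/db and 32.5 CPM in KO db/db (group means). Srsf5 was called higher in KO db/db but not in db/db, at 63.5 CPM in db/+, 136 CPM in db/db and 214 CPM in KO db/db (group means). Cpeb1, which binds cytoplasmic polyadenylation elements of mRNAs, was at 78.1, 80.3 and 64.6 CPM in db/+, 56.2 and 33.9 CPM in db/db and 22.8 and 26.3 CPM in KO db/db. Nup35 of the nuclear pore was at 62.9% of db/+ in db/db and 30.1% in KO db/db, whereas the export receptor Xpo1 was at 60.4% and 46.4% with overlapping diabetic values. The histone members H2aw, H3c14 and H2ac19 were at 26.1 to 33.0% of db/+ in KO db/db and at 52.9 to 60.1% in db/db. Their separation was narrow, with the lowest db/+ value at 1.026, 1.005 and 1.007 times the highest diabetic value, in that order. Histone genes have near-identical copies, and of 41 tested in each comparison, 15 were called lower and 1 higher in db/db and 13 lower and 3 higher in KO db/db. The shares of all genes tested are those given for the SR list.

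Ogt, which attaches O-linked N-acetylglucosamine to nuclear and cytosolic proteins, shared this order. It was at 83.9, 63.8 and 38.6 CPM in db/+, 18.6 and 11.5 CPM in db/db and 5.24 and 5.997 CPM in KO db/db, with no overlap between any groups. Its KO db/db mean was 9.05% of db/+, and the fitted log2 difference from db/db was -1.16 ± 0.29 (SE), or -0.75 without db/db mouse 1. The other glycan enzymes were mixed. Ust, a sulfotransferase of chondroitin and dermatan sulfate, was low in both groups at 20.3% and 16.1%, while B3galnt2, which extends the glycan of dystroglycan, was at 26.4% in db/db and 41.9% in KO db/db.

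**Figure D4:**
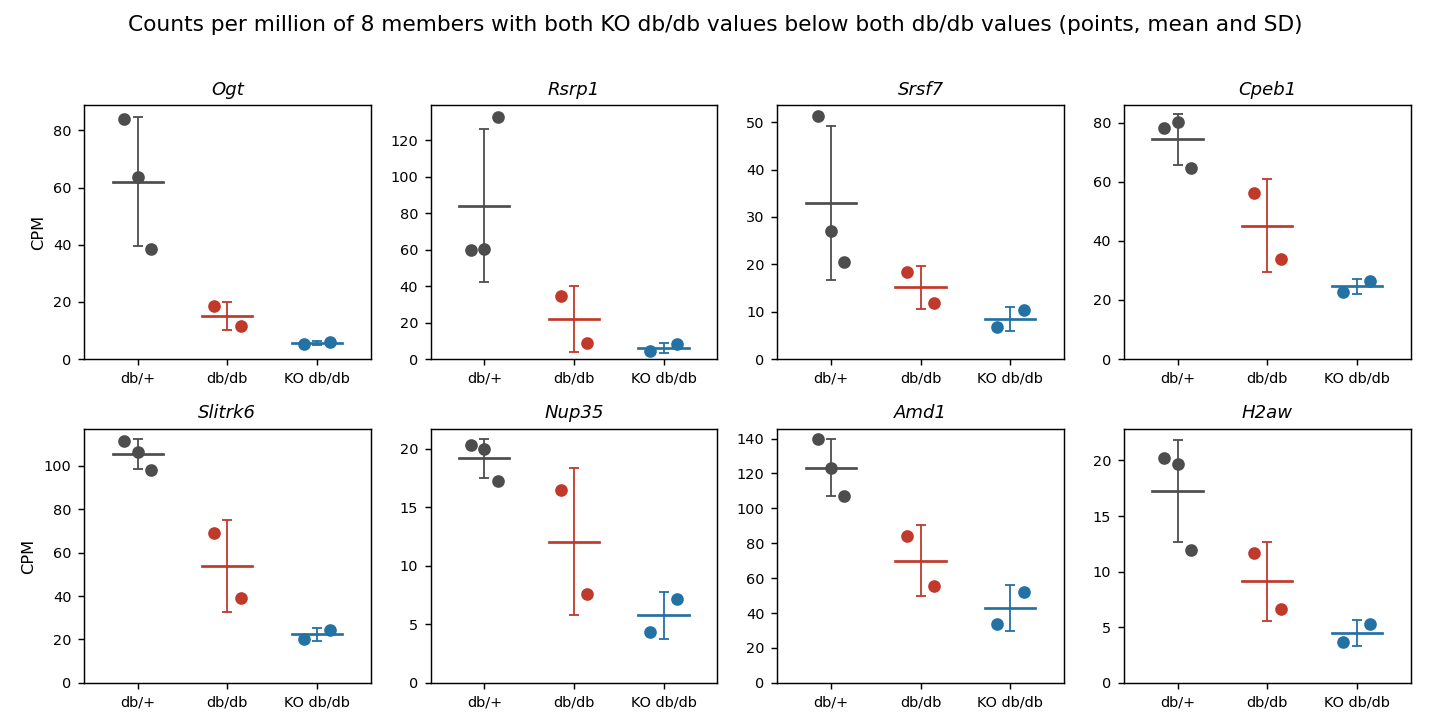
CPM of 8 members in which both KO db/db values were below both db/db values, drawn as points with the group mean and SD on linear axes from 0. The KO db/db points of Ogt and Rsrp1 lie lowest relative to db/+, and in every panel the first db/db mouse lies above the second.

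Protein turnover and membrane traffic made up much of the remainder. Klhl7, a substrate adaptor of cullin 3 ubiquitin ligases, was at 135, 114 and 119.5 CPM in db/+, 25.9 and 6.06 CPM in db/db and 29.9 and 51.1 CPM in KO db/db, with the second db/db mouse far below the first. Uba6, a ubiquitin-activating enzyme, was at 35.5, 30.4 and 27.1 CPM in db/+, 23.00 and 11.5 CPM in db/db and 4.51 and 12.1 CPM in KO db/db. Chordc1, an HSP90 co-chaperone, was at 40.1% of db/+ in db/db and 18.8% in KO db/db, with 1 db/db mouse at the KO level. Among 7 genes of endosomes, lysosomes and vesicle coats, KO db/db was at 26.7 to 49.6% of db/+. Ctso, a lysosomal protease, and Ap1s2, a subunit of the AP-1 coat, were higher in KO db/db than in db/db in both mice, and Clcn7, a chloride transporter of the lysosome, was lower. Among transporters, Slc1a4 for neutral amino acids was at 3.99 and 12.6 CPM in the db/db mice against 14.6, 23.4 and 13.8 CPM in db/+.

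Replicates of a group differed in a shared direction across many members. In db/+ mouse 3, 81 of 97 members were below the mean of mice 1 and 2, with a median ratio of 0.85, compared with 52.1% of the 7000 genes and a median ratio of 0.99. That mouse was also the only one with more than 79 counts on Y-linked genes and had the highest insulin share. KO db/db mouse 2 was above mouse 1 in most members, with a median ratio of 1.36, but the median of all 7000 genes was 1.30, beside the acinar counts in mouse 1. It was below mouse 1 in 19.6% of members and in 7.3% of the 7000 genes, so members had this direction less often than genes at large. In db/db, mouse 2 was below mouse 1 in 66 members (68.0%, against 47.8% of all genes), with a median ratio of 0.81 against 1.01 for all genes. The part of sex or cell mixture in these values was not tested. Summed over members, CPM came to 140700, 131400 and 82240 in db/+, 45360 and 49330 in db/db, and 42790 and 66380 in KO db/db, a sum that the mitochondrial genes dominate. Depth was no limit, as the lowest count of any member in any library was 23, although 38 members had db/+ means of 20 CPM or less.

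Members were spread over the genome. In the RefSeq annotation of GRCm38.p6, 91 matched, and the 6 mitochondrial genes were placed with GENCODE M21. Members lay on every autosome, on X and on the mitochondrial genome, with at most 9 on 1 chromosome (chromosome 3). Slc2a2 spans chr3:28697903-28728361 on the plus strand and Trpm5 chr7:143071529-143094642 on the minus strand, and both are protein coding. Nnat (chr2:157560078-157562525, plus strand) lies within the span of Blcap (chr2:157556362-157566361, minus strand), also a member, but the levels did not match, since Blcap was still at 64.9% of db/+ in db/db. Histones H2bc21, H2ac19 and H3c14 lie together at chr3:96221072-96247348, Akr1c14 and Akr1c19 at chr13:4048991-4248361, and Dusp19 beside Nup35 at chr2:80617214-80660071. In GENCODE M21, exons of 14 members overlap a gene on the same strand, and Dusp19 and Nup35 overlap each other in this way. The share of expressed genes with such overlap was not counted. Exons of 19 members, Trpm5 and Cox6a2 included, overlap a gene on the opposite strand (32.3% of expressed genes do). Whether the libraries kept strand is not given in the sources used here, so reads of such pairs cannot be told apart. For Prss53, a serine protease at 38.7% of db/+ in db/db and 36.1% in KO db/db, exons overlap Zfp646.

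CpG content upstream of the genes, which the rule did not use, varied along the ranking. RefSeq promoters were matched for 66 members, and the 250 bases before the most upstream start in that promoter table were examined for CpG, the dinucleotide that is clustered at promoters active in most tissues and sparse at many tissue-restricted ones. The observed to expected CpG ratio was under 0.6 in 39.4% of members, compared with 24.0% of 5696 expressed genes and 30.9% of 385 genes that met the other conditions but had KO db/db above the 50% limit. Along the ranking, the share was 14 of 24 (58.3%) in ranks 1 to 32, 7 of 20 (35.0%) in ranks 33 to 64 and 5 of 22 (22.7%) in ranks 65 to 97. In 33 of the 66 the start used lies inside the span that the RefSeq gene table gives. In the other 33, where it is the outer end of the gene, the ratio was under 0.6 in 10 of 13, 2 of 8 and 2 of 12 along the same ranks, and in 24.7% of 3138 expressed genes of that kind. These are descriptions with no test, and the start used in β-cells may differ from the one annotated.

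CpG-poor promoters of 3 members, with a ratio under 0.6, and promoters of 2 members above that limit are shown to make the contrast visible. They are from the plus strand for Slc2a2 and G6pc2 and from the minus strand for Trpm5, Amd1 and Pgap1. Each is written 5′ to 3′ up to the base before the outer end of the gene, with every CpG in capitals. They lie in GRCm38.p6 at chr3:28697653-28697902 (Slc2a2), chr7:143094643-143094892 (Trpm5), chr2:69210823-69211072 (G6pc2), chr10:40302189-40302438 (Amd1) and chr1:54557685-54557934 (Pgap1).
Slc2a2: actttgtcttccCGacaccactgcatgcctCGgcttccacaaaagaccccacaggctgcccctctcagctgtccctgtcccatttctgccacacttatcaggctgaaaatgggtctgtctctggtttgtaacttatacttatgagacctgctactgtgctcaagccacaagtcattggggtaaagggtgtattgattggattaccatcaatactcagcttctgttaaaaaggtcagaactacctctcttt
Trpm5: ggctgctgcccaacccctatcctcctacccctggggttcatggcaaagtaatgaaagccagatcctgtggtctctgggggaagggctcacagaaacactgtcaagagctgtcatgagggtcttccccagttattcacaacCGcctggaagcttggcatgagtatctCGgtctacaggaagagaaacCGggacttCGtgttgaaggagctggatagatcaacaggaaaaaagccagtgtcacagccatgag
G6pc2: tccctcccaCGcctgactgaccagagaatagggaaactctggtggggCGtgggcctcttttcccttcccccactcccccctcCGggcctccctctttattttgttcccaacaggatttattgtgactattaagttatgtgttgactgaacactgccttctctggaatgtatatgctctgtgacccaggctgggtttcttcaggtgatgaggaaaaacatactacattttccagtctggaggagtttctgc
Amd1: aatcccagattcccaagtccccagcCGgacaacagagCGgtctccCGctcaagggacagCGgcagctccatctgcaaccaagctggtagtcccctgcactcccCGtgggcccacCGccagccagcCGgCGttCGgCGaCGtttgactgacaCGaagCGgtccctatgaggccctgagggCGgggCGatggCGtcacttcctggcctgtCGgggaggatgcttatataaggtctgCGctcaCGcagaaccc
Pgap1: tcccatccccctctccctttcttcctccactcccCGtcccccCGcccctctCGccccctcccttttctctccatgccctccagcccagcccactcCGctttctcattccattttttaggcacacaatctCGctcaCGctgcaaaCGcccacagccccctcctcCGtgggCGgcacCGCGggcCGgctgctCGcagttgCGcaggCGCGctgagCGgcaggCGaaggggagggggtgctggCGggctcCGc

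Capitals appear 2 times upstream of Slc2a2, 3 times for G6pc2 and 4 times for Trpm5, whereas Amd1 has 19 CpG and Pgap1 20. The ratios were 0.15, 0.19, 0.23, 0.74 and 0.76, in the same order of genes. The median of the 5696 expressed genes was 0.78, so Amd1 and Pgap1 were near it. Trpm5 and Slc2a2 come early in the ranking and Amd1 and Pgap1 late, at 72 and 97, but G6pc2, at 67, is CpG-poor as well.

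**Figure D5:**
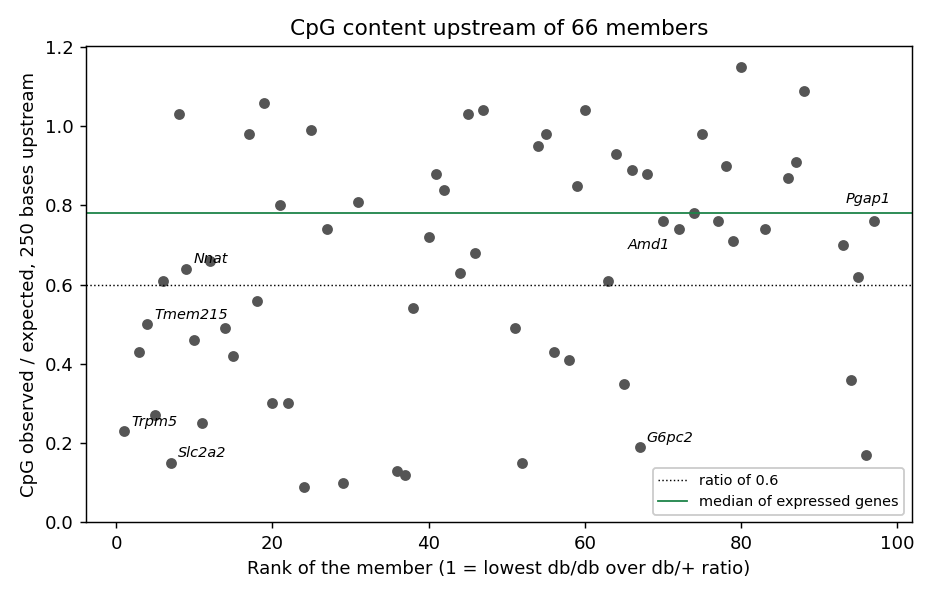
Each point is 1 of the 66 members with a matched promoter, placed by its rank in the db/db to db/+ ratio and by the observed to expected CpG ratio of the 250 bases upstream. Low ratios are frequent at low ranks, with Trpm5 and Slc2a2 at 0.23 and 0.15, but G6pc2 at rank 67 is low too.

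Short motifs of factors known in β-cells were counted in the same windows. On either strand, CATCTG, an E-box bound by NEUROD1, was upstream of 5 of 66 members (7.6%), 8.6% of expressed genes and 14.5% of 27025 promoters. TAATTA, a homeodomain core, was in 2 members (3.0%, against 1.8% and 4.9%), and the MAF site TGCTGAC in 3 (4.5%, against 2.7% and 3.7%). The HNF1 site GTTAAT was in 3 (4.5%, against 3.6% and 6.5%) and the forkhead motif TGTTTAC in 3 (4.5%, against 1.8% and 3.1%). For the RFX site GTTGCC the count was 8 (12.1%, against 10.8% and 10.5%). The palindromic E-box CACGTG was in 6 (9.1%, against 9.4% and 6.0%), the cAMP response element TGACGTCA in 1 (1.5%, against 3.0% and 1.6%) and the TATA box TATAAA in 4 (6.1%, against 5.4% and 13.0%). The GC box GGGCGG was in 34 (51.5%, against 63.6% and 33.0%). Some letters are shared between motifs, and a match is a string in this window, not a bound site.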

How the data were processed

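The 7 libraries came from 1 mouse each, in the groups KO db/db (2), db/db (2) and db/+ (3). The authors made the deposited table of estimated counts from paired-end reads with bcl2fastq 2.19 and kallisto 0.44.0 on GRCm38, summed per gene symbol. The values are whole numbers with no normalization, which edgeR took as counts, and kallisto shares reads among similar transcripts. The gate of the sort for these libraries and the strand setting are not given in the sources used here. Replicate libraries differed by more than sampling noise, and p-values set a group difference against the spread between libraries. With 1 library per mouse, differences between mice and between sorts cannot be told apart in that spread.

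CPM was the count divided by the column sum, and a constant of 1 CPM was added before ratios were ranked. Each pair of groups was fitted by the edgeR 4.0.16 quasi-likelihood test with TMM scaling, filterByExpr (count minimum 10) and Benjamini-Hochberg adjustment over all genes tested, at 0.05. The script was tested on simulated data, in which it recovered 190, 195 and 174 of 200 changed genes for db/db against db/+, KO db/db against db/+ and KO db/db against db/db. False calls there were 11, 4 and 6, in the same order. These counts describe the script, and the share of true changes found in the real libraries was not tested. DESeq2 1.42.0, RLE scaling, no filter, a joint fit, a replicate block, removal of acinar or mitochondrial genes, and leaving out each library were alternatives.

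The members and all lists were chosen with earlier results of these data known. Members named with values were the 12 with the lowest db/db to db/+ ratio, those in a pathway list, the 5 highest and 5 lowest KO db/db to db/db ratios, the 5 highest db/+ means and those at the limits of the rule. Any other member was named for a textbook role after its values were seen. No p-value of a member is given, since the rule used its levels in all 7 libraries.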

Additional observations from a re-analysis of the deposited data

How the results depend on the processing

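Of the 97 members, 79 met the conditions on level, separation and KO db/db with acinar and Reg genes left out of the sums, 97 with TMM factors, insulin or mitochondrial genes left out or a constant of 0.1, 59 with a db/+ minimum of 20 CPM, 51 with a KO db/db limit of 0.4, and 67 to 97 without single libraries, the fewest without KO db/db mouse 1. More genes met the conditions with TMM (280), without insulin (243) and without mitochondrial genes (175), so that the 100 lowest ratios held 64, 63 and 68 of the members, and they held 67 to 97 without single libraries. The smaller counts at 20 CPM and 0.4 follow from the stricter limits. Leaving out mitochondrial genes was chosen after seeing the data. The count of 22 members with KO db/db above db/db became 36 with TMM and 24 to 38 without single libraries. Genes called in db/db against db/+ (5069) and in KO db/db against db/+ (5081) stayed within 1.5 times under all alternatives except single libraries, where they ranged from 3331 to 4394 and from 3060 to 4725, with the low values without db/+ mouse 1 (3331), db/+ mouse 2 (3368) and KO db/db mouse 1 (3060). In KO db/db against db/db, 43 genes were called, but 1386 by DESeq2, 1570 with no filter on low counts, 818 with all 7 libraries in one fit, and 0 to 225 without single libraries. These were 86 without KO db/db mouse 1, 225 without KO db/db mouse 2, 212 without db/db mouse 2 and 0 without db/db mouse 1, where 1826 had an unadjusted p under 0.05 by edgeR. With one library left in an arm, it is assumed to vary like the other group. The cause of these differences was not tested.

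With the mouse number as a replicate block, 22 genes were called in KO db/db against db/db, 13 of them lower. The numbers only name mice, and the deviations of same-numbered KO db/db and db/db libraries had a correlation of -0.0588. The median log2 fold change of members stayed between -1.96 and -1.64 in db/db and between -1.66 and -1.53 in KO db/db under every alternative run. Of 27 named members, 24 kept the sign of their KO db/db to db/db change in every fit, the exceptions being Socs2, G6pc2 and Impact, none of which was called.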

Other observations

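Some genes outside the rule resembled the members in part. Npy, a neuropeptide, had a db/+ mean of 9.53 CPM, under the limit on level, and was at 0.18 CPM in db/db and 0.36 CPM in KO db/db. Cish, a suppressor of cytokine signalling like the member Socs2, was at 18.1 CPM in db/+, 7.18 CPM in db/db and 1.58 CPM in KO db/db. It met the limits on level and on KO db/db but not the one on separation. Unlike the members, it was called lower by edgeR in KO db/db against db/+ (log2 fold change -3.71, adjusted p = 0.00842) but not in db/db (adjusted p = 0.101). The difference between these changes was not called (adjusted p of KO db/db against db/db = 0.249 by edgeR). Among the members themselves, Atp4a, the catalytic subunit of the gastric proton pump, was at 15.5, 12.7 and 6.56 CPM in db/+, with 2.74 to 6.11 CPM in the diabetic libraries.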
